A study of Mus musculus with 16 samples.

Results

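The seminal vesicle (SV) of wild-type (WT) male mice that had received diethylstilbestrol (DES) as newborns was described from 4 RNA-seq samples, named WT-DES samples 1 to 4, out of 16 samples in the series. The members were all samples labelled as week 5 and WT-DES, and no measured value was used to choose them. The mice were of the C57BL/6 strain, and each pup received 2 µg of DES, a synthetic oestrogen, in corn oil under the skin daily from day 1 to day 5. The other 12 samples, of the same age and also 4 per group, were WT mice given the oil alone (WT-veh) and αERKO mice, which lack oestrogen receptor α through disruption of *Esr1*, given the oil (αERKO-veh) or DES (αERKO-DES). The anterior prostate had been trimmed off the SV. The methods on RNA extraction name 3 pools of mice for WT-DES against 4 individual mice in each other group, whereas the labels and the sequencing methods give 4 WT-DES samples. Which of the WT-DES samples came from 1 mouse or from several is therefore not known, and p-values measure the spread between these samples.

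The SV is a paired gland whose folded epithelium, under androgen control, secretes much of the fluid of the semen, inside a coat of smooth muscle that contracts at ejaculation. Its main products are the seminal vesicle secretory (SVS) proteins, several of which form the copulatory plug. Oestrogen acts on the male tract through oestrogen receptor α, and lactoferrin (*Ltf*) is a classical oestrogen-induced product of the uterus that the SV of untreated males makes at a low level. RNA of a whole gland mixes epithelium, muscle, connective tissue, vessels, nerves and immune cells, and in such RNA fewer cells of a type and less RNA per cell cannot be told apart.

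*Ltf* checked the label. Its level in FPKM (fragments scaled by transcript length and by library size) was 167, 185, 221 and 193 in WT-DES samples 1 to 4 and 7.90, 5.68, 9.99 and 10.5 in WT-veh. All 4 DES-exposed samples were high, close together, and apart from the controls, and the change was 4.36 log2 units (limma standard error 0.38, adjusted p = 1.08e-07). *Esr1*, which encodes oestrogen receptor α, was at 8.74, 19.6, 12.99 and 15.7 FPKM in WT-DES and 4.43, 4.55, 3.70 and 2.81 in WT-veh. It rose relative to WT-veh by 1.61 on the log2(FPKM + 1) scale (standard error 0.19, limma adjusted p = 2.69e-06). Sample 1 was the lowest of its group, and the groups did not overlap. These log2 changes come from 1 model of the 16 samples, and a gene was called where the adjusted p was at most 0.05 and the ratio of mean FPKM at least 1.5. Of 15988 genes tested, 28.9% were called higher and 23.9% lower in WT-DES than in WT-veh. The counts of called genes in each list below are to be read beside these shares. These shares depended on the scaling, with 6953 genes higher and 1831 lower at equal totals without the 20 highest genes, and 3689 and 3950 after quantile normalization.

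WT-DES sample 1 stood apart from the other 3 samples of its group, and this bears on each result on spread. Across 14947 genes of at least 300 nt, Pearson's r of log2(FPKM + 1) was 0.926, 0.926 and 0.941 between sample 1 and samples 2, 3 and 4, and 0.966 to 0.978 among those 3. Within the other groups it was 0.971 to 0.994. Among the 11329 genes of at least 300 nt with a mean FPKM above 5 in WT-DES, 382 were at least 2-fold higher on the (FPKM + 1) scale in sample 1 than in any other sample of the group, and 107 were at least 2-fold lower. For samples 2, 3 and 4 the counts were 21, 2 and 30 higher, and 22, 31 and 7 lower. In the 12 samples of the other groups neither count passed 67.

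**Figure D1:**
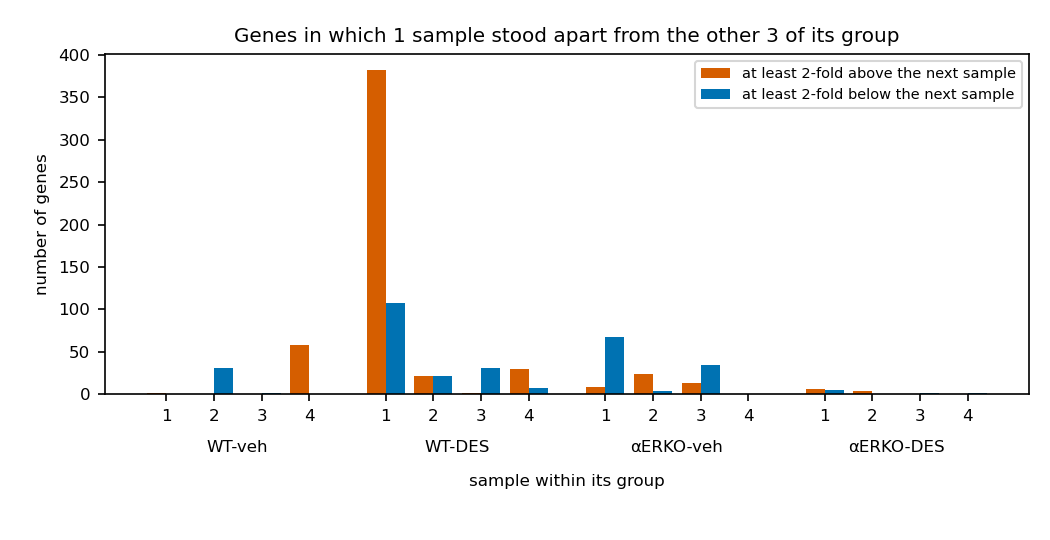
Number of genes (y axis) in which a sample (x axis, by group) was at least 2-fold above (orange) or below (blue) the next sample of its own group, on the (FPKM + 1) scale, for genes of at least 300 nt with a mean FPKM above 5 in that group. WT-DES sample 1 had 382 genes above and 107 below, and the tallest bar of any other sample was 67.

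By rank of mean FPKM, the WT-DES gland still listed SV secretory genes near the top, among genes of other functions. *Svs4* and *Svs5* ranked 2 and 3 in the whole table, at means of 1754 ± 719 and 1557 ± 630 FPKM (SD, n = 4), and *Svs2* had rank 15. Between them stood *Tmsb4x*, which encodes the actin-binding thymosin β4 (849 ± 52.8), the ribosomal protein gene *Rpl41* (815 ± 52.3), *Clu*, encoding the secreted chaperone clusterin (792 ± 154), and *Mgp*, the inhibitor of matrix calcification (789 ± 116). *Atpase6*, named after a mitochondrial ATP synthase subunit, had rank 10 at 844 ± 98.98 FPKM.

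The other places in the top 15 went to features with no reference length matched here or with a longest transcript under 100 nt. *TRBV16\*01*, a T cell receptor segment by name, ranked first at a mean of 17091 FPKM, from 0, 0, 54959 and 13404 in samples 1 to 4. *AB346779* was at 5715 in sample 1 and at 0 in the others, *Mir682* at 1303 and 2291 in samples 1 and 3 and at 0 in samples 2 and 4, and *Snord35b* at 3485 in sample 3 and at 0 elsewhere. FPKM divides by length, so few fragments give a short feature a high value, and these means rest on 1 or 2 samples. *DQ539915* (1292 ± 147) and *AK220028* (972 ± 86.8) were present in all 4 samples. The rankings were therefore also made among genes with a longest transcript of at least 300 nt, a choice made after the values were seen. *Svs4*, *Svs5*, *Tmsb4x*, *Atpase6* and *Rpl41* then held the first 5 places. Further down the 20 highest stood *Dcn*, encoding the collagen-binding decorin (710 FPKM), *B2m* of the MHC class I complex (743), *Apoe* (695), *Cd74*, the MHC class II invariant chain (652), *Sparc* (612) and *Gsn*, encoding gelsolin (592).

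**Figure D2:**
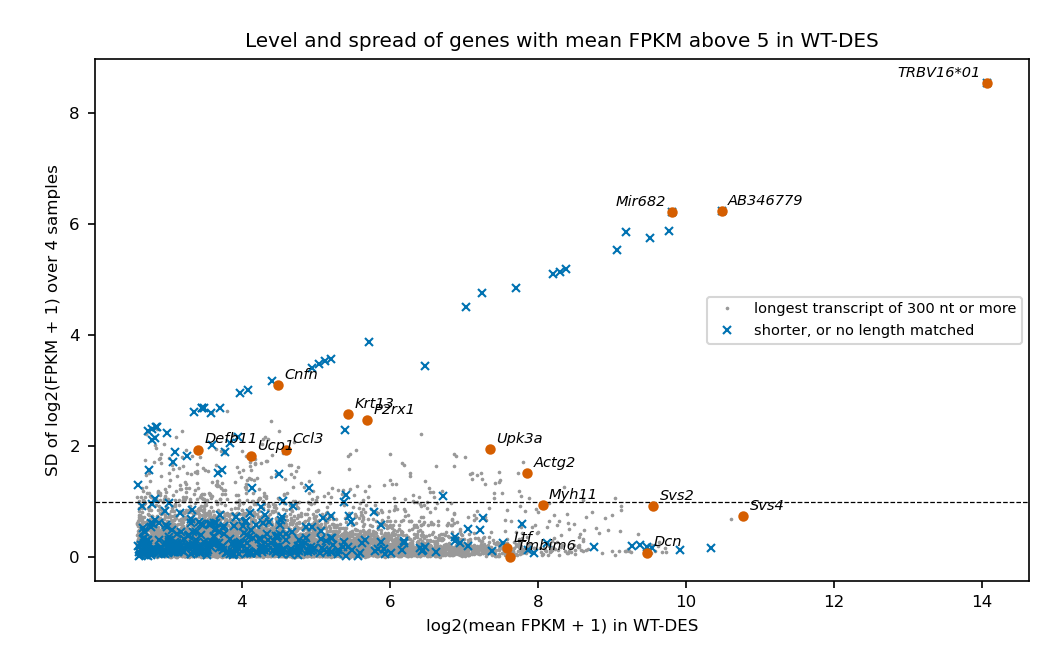
Mean level of each gene in WT-DES (x axis, log2 of mean FPKM + 1) against its SD of log2(FPKM + 1) over the 4 samples (y axis), for the 11711 genes with a mean FPKM above 5. Grey points are genes of at least 300 nt, blue crosses shorter or unmatched features, orange points named genes, and the dashed line an SD of 1. *Svs4* lies at a high level with an SD of 0.74, *Tmbim6* at an SD of 0.011, and the short features *TRBV16\*01*, *AB346779* and *Mir682* have SDs above 6.

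The 12 genes of the SV secretion list were low in all WT-DES samples relative to WT-veh and differed among those samples. *Svs4*, the gene of highest level among those of at least 300 nt, was at 2002, 771, 1766 and 2476 FPKM in samples 1 to 4 and between 9914 and 10901 in WT-veh. *Svs2*, which encodes a main protein of the copulatory plug, was at 1215, 325, 440 and 1040 FPKM in WT-DES. *Svs1* was at 447, 80.2, 45.0 and 273 FPKM. Samples 1 and 4 were high and samples 2 and 3 low for most members, and 9 of the 12 were highest in sample 1 and 3 in sample 4.

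*Pate4*, which encodes a small cysteine-rich secretory protein of the SV, kept another order, with 541, 153, 582 and 838 FPKM. *Ceacam10*, whose product coats sperm, was at 651, 130, 106 and 419 FPKM, and *Sva*, encoding seminal vesicle autoantigen, at 335, 67.0, 48.9 and 229. The list mean of log2(FPKM + 1) was 9.28, 7.21, 7.42 and 8.99 in samples 1 to 4 and 12.27 to 12.46 in WT-veh, so the ranges were far apart while WT-DES spanned 2.07 log2 units. The members held 2.35%, 0.777%, 1.38% and 2.45% of the summed FPKM of samples 1 to 4, and 10.9% to 13.3% in WT-veh.

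All 12 genes fell in WT-DES relative to WT-veh, with a median log2 change of −4.49 beside −0.01 over all genes tested. Without sample 1 the count was also 12, with a median of −4.90. The SD over the 4 samples was above 1 for 8 members, and the median SD of the members was 1.16, beside 0.149 over all 11711 genes with a mean FPKM above 5. *Svs4* and *Svs5* varied least among the members, with SDs of 0.74 and 0.69 that fell to 0.25 and 0.33 without sample 2, and *Svs1* most, with 1.52. *Svs3a* and *Svs3b* are near-identical copies whose reads may have been shared, which was not tested, so their levels (363 and 350 FPKM in sample 1) are uncertain. In the test of spread described further on, 11 of the 12 had a larger spread than in WT-veh, against 7.17% of all genes tested. Without sample 1 it was 10 of the 12, against 141 of 9752 genes. With deviations taken from the group median the test called 0 of 9780 genes against WT-veh (740 at an unadjusted p of at most 0.05), and with only these groups in the limma fit it called 2 toward more spread, so the calls of spread against WT-veh named for this and other lists rest on how the test was made.

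A feature that the choice of samples did not use is position. Of the 12 genes, 6 lie in 98.5 kb of chromosome 2 of GRCm38, at chr2:164235929-164334396 (GENCODE M21), which holds *Svs2*, *Svs3b*, *Svs4*, *Svs3a*, *Svs6* and *Svs5*. RefSeq promoters (GRCm38.p6) were matched for 9 of the 12 genes. The 150 bases before the RefSeq start are shown for 5 of the 9, all lying outside the annotated transcript of the gene. Of these, 3 belong to the chromosome 2 block, and *Svs1* and *Sva* lie on chromosome 6, so that these 3 can be compared with secretory genes elsewhere. All are written on the strand of the gene, and capitals mark TATAAA and GATAAG.
Svs6 (chr2:164316601-164316750, plus strand): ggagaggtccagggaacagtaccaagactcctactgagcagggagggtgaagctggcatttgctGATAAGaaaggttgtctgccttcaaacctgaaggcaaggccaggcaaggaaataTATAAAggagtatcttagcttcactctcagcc
Svs3a (chr2:164289117-164289266, plus strand): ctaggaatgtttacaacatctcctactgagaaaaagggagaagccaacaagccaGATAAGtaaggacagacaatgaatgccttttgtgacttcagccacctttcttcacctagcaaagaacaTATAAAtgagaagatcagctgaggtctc
Svs3b (chr2:164256644-164256793, minus strand): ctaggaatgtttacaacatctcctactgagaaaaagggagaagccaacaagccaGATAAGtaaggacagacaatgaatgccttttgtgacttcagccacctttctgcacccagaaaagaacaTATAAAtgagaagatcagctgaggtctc
Svs1 (chr6:48986711-48986860, plus strand): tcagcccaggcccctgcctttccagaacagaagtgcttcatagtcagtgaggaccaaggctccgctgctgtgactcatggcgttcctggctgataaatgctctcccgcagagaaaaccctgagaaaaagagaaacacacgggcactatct
Sva (chr6:42038244-42038393, plus strand): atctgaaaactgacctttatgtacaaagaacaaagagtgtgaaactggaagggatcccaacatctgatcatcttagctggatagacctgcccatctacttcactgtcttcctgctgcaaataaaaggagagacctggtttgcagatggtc

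The stretches of *Svs3a* and *Svs3b* differed at 3 of 150 positions. TATAAA and GATAAG, picked after the sequences were read and searched on both strands, were each found in 5 of the 9 promoters, in both cases *Svs3a*, *Svs3b*, *Svs4*, *Svs5* and *Svs6*. The promoter of *Svs2*, which lies in the same block, held neither. In the same 150 bases TATAAA and GATAAG were found in 7.57% and 3.75% of all 32851 promoters of the table. TGTTCT, a half-site that steroid receptors bind, was found on either strand in 5 of the 9 (*Svs1*, *Svs3a*, *Svs3b*, *Ceacam10* and *Sva*) and in 9.62% of all promoters. These are matches of letters and are neither sites nor causes.

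Prostatic secretory genes followed the same samples at a lower level, with sample 3 lowest. *Pbsn*, encoding the androgen-induced probasin, was at 166, 31.9, 10.6 and 80.0 FPKM in samples 1 to 4 and between 2010 and 2179 in WT-veh. *Tgm4*, the transglutaminase that cross-links the copulatory plug, was at 152, 27.4, 6.62 and 66.6 FPKM, and *Msmb*, encoding β-microseminoprotein, at 41.9, 10.3, 3.31 and 24.8. *Defb50*, a β-defensin gene, was less uneven, with 91.09, 100.01, 41.54 and 91.73 FPKM. All 7 genes of the list fell relative to WT-veh (median log2 change −4.55), and 7 did so without sample 1. Against WT-veh, *Pbsn* and *Tgm4* were called more variable and *Sbp* less variable, out of 6 tested. Without sample 1 the counts were 2 and 0, and with deviations from the group median 0 and 0. *Sbp* was at 17.6, 5.38, 2.47 and 14.4 FPKM in WT-DES and at 58.8, 2.59, 2057 and 4368 in WT-veh.

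Oestrogen-induced genes of the tract were on average high in every WT-DES sample, and their members differed in how even they were. The list mean was 4.93, 5.12, 4.32 and 5.00 in samples 1 to 4 and 2.28 to 2.803 in WT-veh, without overlap. *C3*, the complement component that oestrogen induces in the uterus, was at 233, 242, 194 and 220.5 FPKM in WT-DES and at a mean of 17.4 in WT-veh. *Ltf* and *C3* had SDs of 0.17 and 0.14, close to the median of 0.149 over all genes above 5 FPKM. After quantile normalization the SD of *Ltf* was 0.35, against a median of 0.17 over all genes. Over the 8 list genes with a mean above 5 FPKM the median was 0.551, and *Padi1* (1.25) and *Wfdc2* (1.07) passed an SD of 1, as did *Clca3* (1.13) below that mean. *Lcn2*, encoding lipocalin 2, was at 618.5 FPKM in sample 1 and at 289, 246 and 284 in the others. *Wfdc2*, a protease inhibitor gene, was at 390.95, 76.07, 86.98 and 122.32, also with sample 1 high. *Padi1*, encoding a peptidylarginine deiminase, was at 11.0, 9.07, 1.14 and 12.7, with sample 3 low. *Pgr*, the progesterone receptor gene, was at 7.03, 13.3, 6.40 and 12.8 and *Greb1* at 4.01, 5.75, 1.92 and 4.10. Of the 10 genes, 9 rose relative to WT-veh and 10 without sample 1. *Clca3* was the gene not called, at 0.70, 10.2, 3.05 and 4.37 FPKM in WT-DES and a mean of 1.03 in WT-veh.

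**Figure D3:**
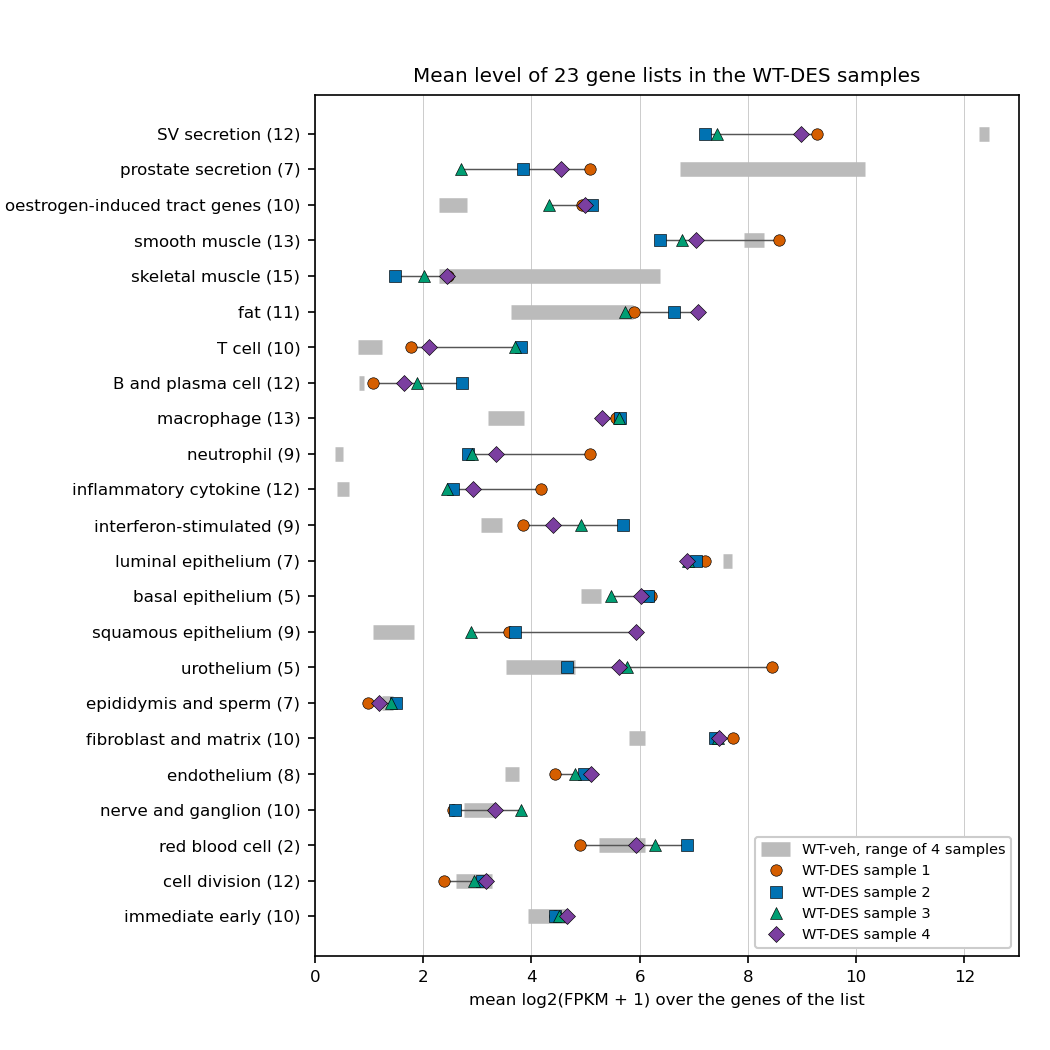
Mean log2(FPKM + 1) over the genes of each of 23 lists (x axis; the number of genes in the table stands beside each list) in WT-DES samples 1 to 4 (coloured symbols joined by a line), with the range of the 4 WT-veh samples as a grey bar. The SV secretion means, 7.21 to 9.28, lie far below the WT-veh bar, sample 1 is far to the right for urothelium at 8.44, and the 4 samples lie close together for macrophage genes at 5.31 to 5.64.

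Smooth muscle genes set sample 1 apart from the rest of the group. *Actg2*, encoding the γ-actin of visceral smooth muscle, was at 642, 56.3, 86.7 and 137 FPKM in samples 1 to 4 and at 413 to 597 in WT-veh. *Des*, encoding the intermediate filament protein desmin, was at 415, 43.6, 65.4 and 82.0 FPKM, and *Myh11*, the smooth muscle myosin heavy chain gene, at 567, 125.7, 176 and 198.5. *Acta2* was at 445, 180.3, 229 and 261, and *Cald1*, encoding the actin-binding caldesmon, at 588, 130.2, 158 and 190.3. Each of the 13 genes was highest in sample 1 and lowest in sample 2. Over the list, the mean was 8.57, 6.38, 6.78 and 7.03 against 7.92 to 8.29 in WT-veh, so that sample 1 lay above and the other 3 below the WT-veh range. The list took 1.55% of the summed FPKM of sample 1 and 0.425% to 0.638% in the others.

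Relative to WT-veh, 7 of the 13 smooth muscle genes fell and 0 rose by the limma call (median log2 change −1.02), beside 23.9% and 28.9% of all genes tested. Without sample 1, 11 fell (median −1.35). The direction depended on the scaling, since after quantile normalization the median was 0.08 and 1 gene was lower. When samples were set to equal totals without the 20 highest genes, the median of all tested genes moved from −0.01 to 0.38 and that of smooth muscle to −0.59. In the test of spread, 10 of the 13 had a larger spread than in WT-veh, beside 7.17% of all genes, and 0 did so without sample 1 or with deviations from the group median. Among samples 2 to 4 alone the SD of the list mean was 0.33, against 0.96 with sample 1.

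Skeletal muscle genes had list means of 2.45, 1.49, 2.01 and 2.43 in the WT-DES samples. The WT-veh means were 2.64, 2.29, 3.48 and 6.38, with sample 4 far above the rest. *Ckm*, encoding muscle creatine kinase, was at 80.2, 1.82, 5.27 and 13.2 FPKM and *Acta1*, encoding skeletal α-actin, at 235, 24.9, 43.1 and 48.9, both highest in sample 1. *Actc1*, encoding cardiac α-actin, was at 29.0, 0.36, 1.57 and 3.20, also with sample 1 high. Of the 6 members above 5 FPKM 3 were highest in sample 1 and 3 in sample 4, among the latter *Tnnc2*, encoding troponin C of fast muscle, at 9.34, 3.37, 8.12 and 12.7. Of the fast myosin genes, *Myh4* was at 0.30, 0.12, 0.05 and 0.34, *Myh1* at 0.38, 0.10, 0.76 and 0.88, and *Myh2* at 2.72, 0.02, 0.17 and 0.25 FPKM, highest in sample 1. Of the 15 genes, 4 were called lower than in WT-veh and 0 higher, with or without sample 1, a share near the 23.9% of all genes tested.

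Uroplakin genes, which encode the plaque proteins of the urothelial surface, had the largest SD of the list mean in WT-DES, 1.62, which fell to 0.60 without sample 1, under the 1.57 of squamous and 0.97 of SV secretion genes. *Upk1a* was at 672, 43.1, 103 and 70.6 FPKM in samples 1 to 4, *Upk2* at 357, 15.4, 49.2 and 40.9 and *Upk3a* at 501, 18.1, 68.9 and 62.6. Sample 1 was highest for all 5 genes, and the list mean was 8.44, 4.65, 5.77 and 5.62, with 3.53 to 4.80 in WT-veh. *Upk1b* and *Upk2* were also present in WT-veh, at 59.2 to 73.8 and 43.5 to 62.8 FPKM, whereas *Upk3a* was at a mean of 7.46 there. The 5 genes took 0.503% of the summed FPKM in sample 1 and 0.0367% to 0.0883% in the others. With sample 1, 3 of the 5 genes rose relative to WT-veh and 0 fell, beside 28.9% and 23.9% of all genes tested. Without it 2 rose and 1 fell, beside 4683 and 3986 of 15983 genes, so nothing particular to uroplakin genes is read from the latter. *Upk1b* and *Upk2* had a larger spread than in WT-veh, of 3 tested, beside 7.17% of all genes. Without sample 1 the count was also 2, beside 141 of 9752 genes, and with deviations from the group median it was 0. The list means of smooth muscle, uroplakin, neutrophil and cytokine genes were all highest in sample 1, and the part of any of these in the others was not tested.

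Other genes that were high in sample 1 alone belonged to none of the lists. *P2rx1*, an ATP-gated ion channel of smooth muscle, was at 182, 2.42, 7.65 and 11.1 FPKM, and *Igfbp2*, encoding an insulin-like growth factor binding protein, at 409, 23.98, 39.1 and 43.0. *Pitx1*, a homeodomain factor gene, was at 39.8, 1.02, 1.85 and 3.64. *Kcnf1*, a potassium channel subunit gene, was at 31.3, 0.16, 0.39 and 0.66, *Npy6r*, a neuropeptide Y receptor gene, at 29.1, 0.23, 0.62 and 0.68, and *Pthlh*, encoding parathyroid hormone-like hormone, at 43.2, 1.42, 2.50 and 2.71. For each of these, samples 2 to 4 lay far below sample 1, and for *P2rx1* sample 2 also lay well below samples 3 and 4. The WT-veh means were 21.2 for *P2rx1*, 72.3 for *Igfbp2* and 0.34 for *Pitx1*. Genes low in sample 1 alone included *Cidea* (2.55, 15.4, 23.2 and 54.6 FPKM) and *Ucp1* (1.27, 7.75, 8.44 and 48.5), both of brown fat, and *Col26a1* (1.45, 9.56, 34.2 and 36.1).

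Squamous epithelial genes set sample 4 apart. *Krt13*, a keratin of non-cornified stratified epithelium, was at 2.56, 14.5, 2.39 and 150.3 FPKM in samples 1 to 4, and *Krt6a* at 6.49, 14.0, 4.44 and 72.2. *Krt1* and *Krt10*, the paired keratins of cornifying epidermis, were at 1.41, 2.15, 1.24 and 24.6 and at 5.51, 6.31, 2.16 and 54.5. *Sprr3*, encoding a small proline-rich protein of the cell envelope, was at 0.18, 1.79, 0 and 49.7, and *Lor*, encoding loricrin, at 0.27, 0.88, 0.84 and 11.4. Sample 4 alone was high for these genes, and 6 of the 8 list genes with a mean above 5 FPKM were highest there. *Ivl*, encoding involucrin, and *Sprr1a* were highest in sample 1, at 181, 25.9, 26.8 and 32.3 and at 832, 219, 159.9 and 352 FPKM. *Krt4* differed less than the other members, at 51.6, 60.5, 62.2 and 98.1, with an SD of 0.393. On average the list stood at 3.58, 3.69, 2.89 and 5.93, above the WT-veh range of 1.07 to 1.84 in all 4 samples. Relative to WT-veh, 7 of the 9 genes rose (median log2 change 3.39), beside 28.9% of all genes tested. Without sample 1, 8 rose, and after quantile normalization 5 did. *Krt10*, called higher, had a WT-veh mean of 2.42, above its level in sample 3.

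Genes outside the list with the same pattern were among the most variable of at least 300 nt. *Cnfn*, encoding the cornified envelope protein cornifelin, was at 0.07, 0.60, 0 and 85.0 FPKM, *Slurp1* at 0, 0.32, 0.33 and 43.9, *Crct1* at 0, 0.14, 0 and 24.9 and *Calm4* at 0.05, 0.15, 0 and 22.0. *Krt6b*, a keratin of stratified epithelia, was at 1.53, 5.83, 0.58 and 71.98. *Krtdap*, a gene of keratinocyte differentiation, was at 18.8, 2.85, 1.00 and 52.8, and *Sprr2d* at 124, 72.8, 4.27 and 139, so that sample 3 was the low one for the latter.

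The list means of basal and luminal epithelial genes differed less between the samples. The basal list mean was 6.20, 6.16, 5.47 and 6.02 against 4.92 to 5.29 in WT-veh. *Krt5* was at 208, 130.3, 67.7 and 152 FPKM and *Krt14*, its partner keratin, at 55.5, 70.7, 35.8 and 175, while *Trp63*, the basal transcription factor gene, was at 33.3, 21.7, 19.1 and 20.9. Of the 5 genes 3 rose relative to WT-veh, with or without sample 1, beside 28.9% of all genes tested. After quantile normalization and at equal totals 5 did, beside 3689 of 15754 and 6953 of 16198 genes tested. The median SD of the 5 was 0.676. *Krt14* was the 1 of 5 called more variable than in WT-veh, beside 7.17% of all genes tested. Without sample 1 the count was 2, beside 141 of 9752 genes, and with deviations from the group median it was 0. The luminal list mean was 7.204, 7.05, 6.90 and 6.87, under the WT-veh range of 7.55 to 7.71. *Krt18* was at 381, 207, 199 and 227.5 FPKM, *Krt8* at 161, 106, 97.7 and 96.1, and *Cdh1*, encoding E-cadherin, at 84.4, 98.5, 78.2 and 75.3. Of the 7 luminal genes 5 were called lower and 0 higher. At equal totals without the 20 highest genes 1 was lower and 1 higher, and after quantile normalization 0 and 1. Their median SD was 0.242. *Krt18* was the 1 of 7 called more variable than in WT-veh, beside 7.17% of all genes tested, a call lost without sample 1 and with deviations from the group median.

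**Figure D4:**
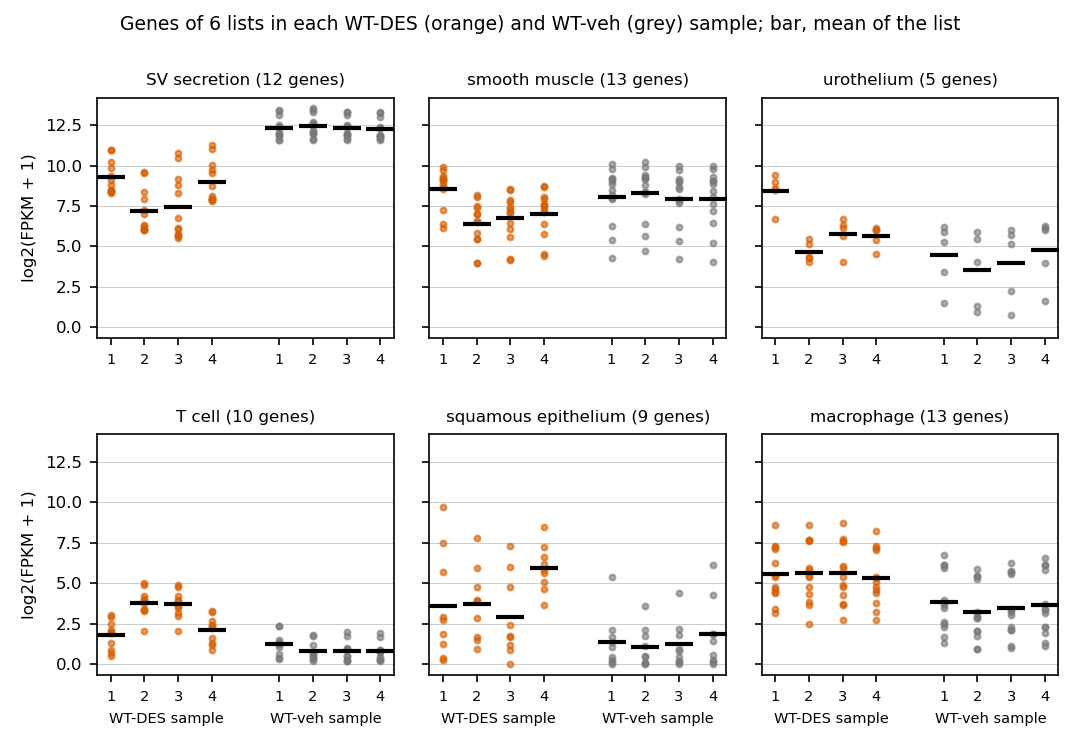
Each gene of 6 lists (points) as log2(FPKM + 1) (y axis) in WT-DES samples 1 to 4 (orange) and WT-veh samples 1 to 4 (grey), with the list mean of each sample as a black bar. Sample 1 holds the highest means for smooth muscle (8.57) and urothelium (8.44), samples 2 and 3 for T cells (3.80 and 3.70) and sample 4 for squamous epithelium (5.93), while macrophage means lie at 5.31 to 5.64.

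Immune genes were present in all WT-DES samples, and the classes of cell they mark differed in which samples they favoured. Macrophage genes had the most even list mean of these classes, but the members differed in opposite directions. *Lyz2*, encoding lysozyme, was at 384, 397, 418 and 299 FPKM, *C1qa*, a complement C1q chain gene, at 150.4, 206, 198 and 156, and *Csf1r*, encoding the receptor for colony-stimulating factor 1, at 44.6, 61.7, 66.0 and 41.1. The list mean of 5.55, 5.64, 5.62 and 5.31 had an SD of 0.15, and WT-veh lay at 3.21 to 3.86. All 13 genes rose (median log2 change 2.06), with or without sample 1. The median SD of the members was 0.279, beside 0.149 over all genes above 5 FPKM. Of the 13 genes 3 were highest and 3 lowest in sample 1. *Cd14*, a receptor for bacterial lipopolysaccharide, was the most uneven, at 75.7, 42.1, 26.2 and 38.8 FPKM, highest in sample 1. *Aif1* was low in samples 1 and 4, at 25.9, 55.6, 61.5 and 32.5.

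T cell genes were high in samples 2 and 3 and low in samples 1 and 4. *Cd3e*, a chain of the T cell receptor complex, was at 2.87, 12.6, 11.2 and 3.76 FPKM, *Lck*, the T cell kinase gene, at 6.46, 28.9, 28.3 and 8.26, *Cd4* at 3.26, 15.4, 17.4 and 5.42 and *Cd8a* at 0.44, 8.91, 7.03 and 1.26. Averaged over the list, the level was 1.77, 3.80, 3.70 and 2.11, all above the WT-veh range of 0.79 to 1.24. All 10 genes rose relative to WT-veh (median log2 change 2.04), and 10 did so without sample 1. Each of the 10 had a lower level in sample 1 than in samples 2 and 3.

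B and plasma cell genes were highest in sample 2. *Cd79b*, of the B cell receptor, was at 2.35, 15.8, 8.50 and 3.78 FPKM and *Igj*, encoding the immunoglobulin joining chain, at 3.37, 41.0, 7.21 and 18.4. Most members were near the lower limit, and only *Cd79b* and *Igj* passed a mean of 5 FPKM. Of 11 genes tested 10 rose and 1 fell, the latter being *Derl3*, encoding a protein of the endoplasmic reticulum, at 3.95, 3.02, 2.91 and 7.14 FPKM against a mean of 117 in WT-veh.

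Neutrophil genes were high in sample 1. *S100a8* and *S100a9*, which encode the subunits of calprotectin, were at 371, 47.8, 44.7 and 85.5 FPKM and at 415, 41.4, 46.7 and 97.4. *Cxcr2*, the receptor for neutrophil-attracting chemokines, was at 17.1, 0.74, 1.25 and 3.88, and *Retnlg* at 78.1, 12.1, 5.99 and 31.4. *Ngp* and *Camp*, which encode granule proteins, were at 34.2, 4.71, 6.51 and 3.59 and at 17.5, 3.17, 8.02 and 1.89, whereas the earlier granule genes *Mpo* and *Elane* stayed between 1.00 and 3.25 in all 4. Averages of the list were 5.07, 2.83, 2.90 and 3.34, with WT-veh at 0.37 to 0.51 and no overlap. All 9 genes in the table rose relative to WT-veh, with or without sample 1, and the median log2 change was 2.99 with it and 2.48 without it. *Mmp8*, encoding the neutrophil collagenase, was at 22.8, 0.48, 0.24 and 1.28.

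Cytokine genes had the same leading sample. *Cxcl2*, encoding a neutrophil chemoattractant, was at 68.3, 1.80, 2.41 and 5.69 FPKM, *Ccl3* at 79.0, 5.35, 3.50 and 4.92, *Il1b*, encoding interleukin 1β, at 67.0, 16.6, 16.5 and 16.1 and *Saa3*, an acute-phase gene, at 210.2, 28.4, 74.6 and 56.8. *Cxcl5* was high in samples 1 and 4, at 41.6, 4.60, 2.45 and 19.8. *Tnf* was at 6.93, 6.53, 6.57 and 2.53, *Ccl2* at 7.27, 7.66, 8.32 and 11.8, and *Il6* was near 0, at 0.04, 0.48, 0.12 and 1.87. The list mean was 4.18, 2.55, 2.43 and 2.92 against 0.41 to 0.63 in WT-veh, and all 10 genes tested rose, with or without sample 1.

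Interferon-stimulated genes were ordered otherwise, with sample 2 highest for all 9. *Ifit3* was at 15.6, 75.7, 43.9 and 28.4 FPKM and *Irf7*, a transcription factor gene of the interferon response, at 26.3, 97.5, 71.4 and 36.5. The list mean was 3.84, 5.69, 4.92 and 4.397 against 3.06 to 3.45 in WT-veh. Of the 9 genes 7 rose relative to WT-veh and 8 without sample 1. Of 6 tested for spread, 4 varied more in WT-DES than in WT-veh, among them *Ifit3*, *Irf7* and *Usp18*, beside 7.17% of all genes. Without sample 1 the count was 2 of 6, and with deviations from the group median it was 0.

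The mean of the fat genes was highest in sample 4, then sample 2, but not every member kept this order. *Adipoq*, encoding the fat hormone adiponectin, was at 79.2, 130.5, 65.1 and 181 FPKM in WT-DES and at 34.2, 10.2, 36.2 and 58.6 in WT-veh. *Plin1*, encoding the lipid droplet protein perilipin, was at 22.9, 60.5, 23.9 and 63.8 and *Fabp4*, the fatty acid binding protein gene of adipocytes, at 564.5, 528, 344 and 761. *Ucp1*, the uncoupling protein gene of brown fat, varied most, with an SD of 1.82. Of the 10 fat genes with a mean above 5 FPKM, 10 were highest in sample 4. The list mean was 5.89, 6.63, 5.72 and 7.07, and the lowest of these overlapped the WT-veh range of 3.63 to 5.87. Of 11 genes 7 rose relative to WT-veh, with or without sample 1, beside 28.9% of all genes tested. Of the 4 tested for spread 0 varied more than in WT-veh, beside 7.17% of all genes, so nothing is read from that count. The list mean had an SD of 0.96 in WT-veh against 0.63 in WT-DES.

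Connective tissue genes differed little between the samples, with a median SD of 0.208 over the list. *Dcn* was at 735, 738, 715 and 652 FPKM, *Col1a2* at 361, 306, 355 and 350 and *Lum*, encoding lumican, at 183, 220.3, 194 and 211. The fibroblast and matrix list had means of 7.72, 7.39, 7.45 and 7.47 against 5.81 to 6.10 in WT-veh, and 9 of the 10 genes rose, with *Thy1* the gene not called. The least even was *Fn1*, encoding fibronectin, at 180 in sample 1 and 43.0, 38.7 and 53.8 in the others. *Postn*, encoding periostin, at 141, 74.1, 85.7 and 101, and *Fbln1*, encoding fibulin 1, at 284, 201, 185 and 185, were also highest in sample 1. Endothelial means were 4.43, 4.97, 4.81 and 5.10 against 3.50 to 3.76, with *Pecam1* at 50.0, 66.5, 59.1 and 74.6 FPKM, and all 8 genes rose. Sample 1 was the lowest for 7 of these 8, and the median SD of the members was 0.297. *Emcn*, encoding endomucin, was at 25.7, 48.8, 42.3 and 50.0 FPKM. It was the 1 of 7 called more variable than in WT-veh, beside 7.17% of all genes tested. The call was lost without sample 1 and with deviations from the group median, so nothing particular to endothelial genes is read from it.

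Nerve genes favoured sample 3. *Snap25*, of the synaptic release machinery, was at 1.06, 3.27, 20.4 and 15.7 FPKM. *Uchl1* did not follow it, at 247, 14.5, 72.7 and 57.7. The list mean was 2.56, 2.59, 3.81 and 3.33, overlapping the WT-veh range of 2.75 to 3.32, and 4 of the 10 genes rose and 1 fell, against 2 and 2 after quantile normalization and 28.9% and 23.9% of all genes tested, so that nothing particular to nerve genes is read from them. The 2 red cell genes in the table, *Hba-a2* (152.5, 415, 373 and 306 FPKM) and *Alas2* (4.79, 31.9, 15.4 and 11.1), were lowest in sample 1 and highest in sample 2. Relative to WT-veh 0 of the 2 were called, and 1 was called higher without sample 1, after quantile normalization and at equal totals. Cell division genes had means of 2.39, 3.09, 2.94 and 3.15, within or under the WT-veh range of 2.60 to 3.26. Of the 12 genes 1 was called higher (*Mki67*) and 1 lower, against 5 and 0 at equal totals and 0 and 3 after quantile normalization. *Mki67* was at 5.22, 11.4, 10.3 and 11.0, and sample 1 was lowest for all 8 members above 5 FPKM. Immediate early genes, which respond to handling, had close list means of 4.43, 4.43, 4.50 and 4.65, but the members differed in opposite directions. *Egr1* was at 11.6, 25.8, 24.4 and 31.6 FPKM, lowest in sample 1, and *Dusp1* at 48.9, 21.3, 24.3 and 28.7, highest there. The median SD of the members was 0.378, and of the 10 genes 5 rose and 1 fell relative to WT-veh, beside 28.9% and 23.9% of all genes tested.

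Of the 7 genes of the epididymis and sperm list, 6 were near 0. *Prm1*, *Prm2* and *Tnp1*, which encode sperm nuclear proteins, did not pass 1.42 FPKM in any WT-DES sample, and *Lcn5*, *Lcn8* and *Adam7*, of the epididymis, did not pass 0.48. *Crisp1*, encoding a secretory protein of the epididymis, was at 66.2, 361, 246 and 36.7 FPKM in WT-DES and at a mean of 431 in WT-veh, a difference that was not called. The β-defensin genes *Defb11*, *Defb2* and *Defb28*, chosen after their values were seen, were highest in sample 2, with *Defb11* at 1.08, 33.7, 2.93 and 1.00, *Defb2* at 2.46, 47.2, 9.17 and 1.61 and *Defb28* at 0.78, 22.2, 1.41 and 1.62. *Defb42* was highest in sample 3. Of 2 further genes of the epididymis, outside the list and also chosen after their values were seen, *Ces5a*, a carboxylesterase gene, was at 9.99, 71.99, 4.18 and 0.71, and *Gpx5*, encoding a glutathione peroxidase, at 24.1, 63.4, 49.4 and 8.37.

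By SD of log2(FPKM + 1), the 20 genes of largest spread in WT-DES were all short or unmatched features listed at 0 in at least 1 sample, and for 0 of them was a transcript of at least 300 nt matched. *TRBV16\*01* (SD 8.54), *AB346779* (6.24) and *Mir682* (6.22) led. Of the 345 genes with an SD above 1 among 11711 (2.95%), 290 were of at least 300 nt, 22 were shorter and 33 had no length matched. Among those 290 genes, the highest value was in sample 1 for 171, in sample 2 for 42, in sample 3 for 37 and in sample 4 for 40. The lowest value was in sample 2 for 112, in samples 1 and 3 for 80 each and in sample 4 for 18. The 10 of largest SD were *Cnfn*, *Sprr3*, *Slurp1*, *Krt13*, *P2rx1*, *Krt6b*, *Crct1*, *Kcnf1*, *Ces5a* and *Sprr2d*, from 3.10 for *Cnfn* to 2.22 for *Sprr2d*.

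**Figure D5:**
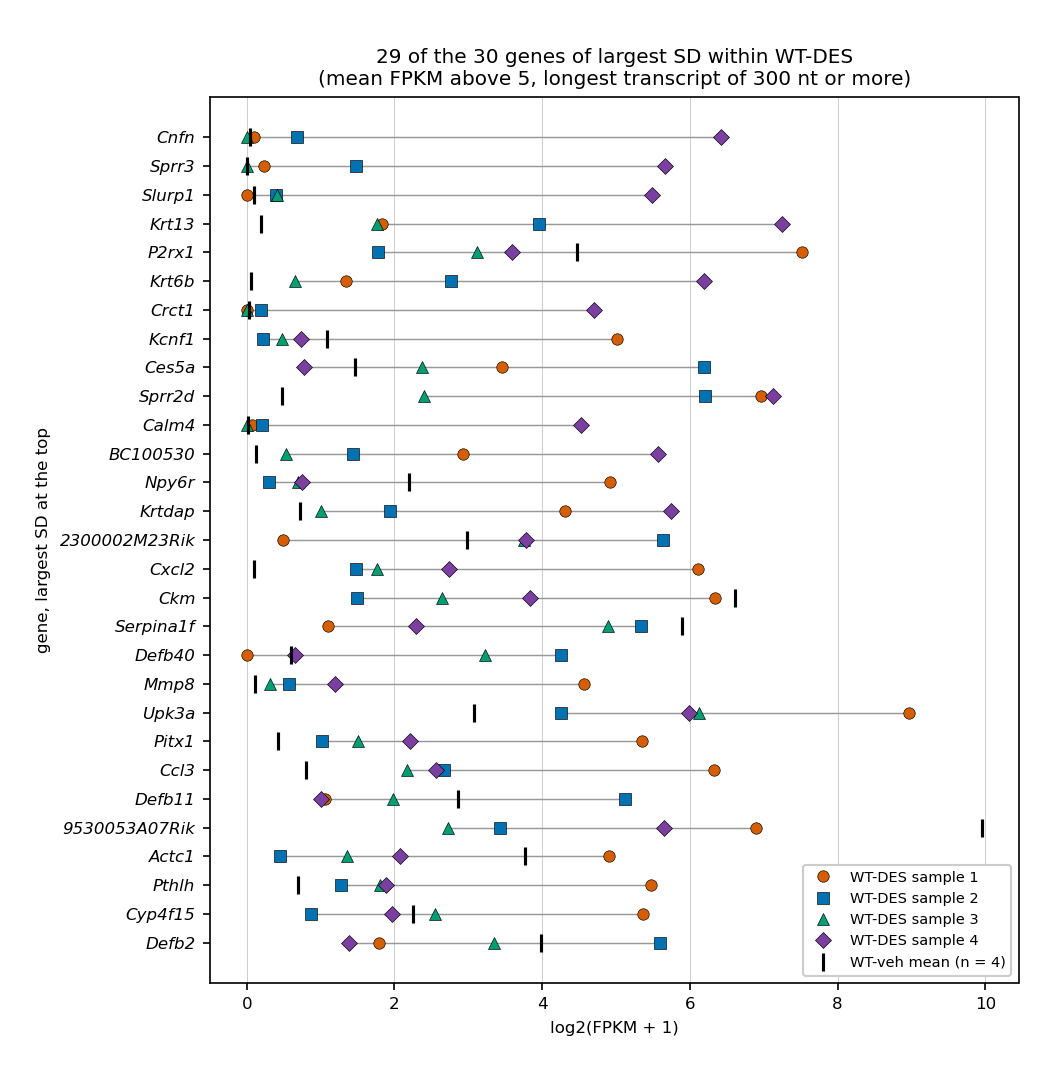
Genes among the 30 of largest SD within WT-DES (29 are drawn) out of those of at least 300 nt with a mean FPKM above 5 (y axis), with log2(FPKM + 1) (x axis) in samples 1 to 4 (coloured symbols) and the WT-veh mean of 4 samples (black tick). Rows with 1 sample far from the others include sample 4 for *Cnfn* (85.0 FPKM), sample 1 for *P2rx1* (182) and sample 2 for *Defb2* (47.2).

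At the other end, some abundant genes hardly differed between the samples. *Tmbim6*, encoding a membrane protein of the endoplasmic reticulum, was at 195, 198, 199 and 196 FPKM, with an SD of 0.011, the smallest among the 200 genes of highest mean. *Txnip*, encoding the thioredoxin-interacting protein, was at 316, 322, 304 and 309 and *S100a10* at 208, 209, 205 and 217. The mitochondrial *Uqcrh*, *Rsrp1*, *Gas6*, *Crip1* and *Igfbp7* followed, all with an SD under 0.05.

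The spread was set against that of the other groups. The median SD over genes above 5 FPKM was 0.149 in WT-DES, 0.113 in WT-veh, 0.138 in αERKO-veh and 0.133 in αERKO-DES. With 1 sample left out at a time, the median ran from 0.0937 (without sample 1) to 0.154 in WT-DES, from 0.0914 to 0.118 in WT-veh, from 0.113 to 0.148 in αERKO-DES and from 0.117 to 0.156 in αERKO-veh, and these ranges overlapped. Among genes of at least 300 nt, an SD above 1 was found for 290 in WT-DES, 62 in WT-veh, 102 in αERKO-veh and 28 in αERKO-DES. Without sample 1 the WT-DES count was 112, and leaving out 1 sample at a time gave 336 to 376 for the other WT-DES samples, 21 to 80 in WT-veh, 14 to 31 in αERKO-DES and 56 to 119 in αERKO-veh. The WT-DES count without sample 1 therefore lay within the αERKO-veh range.

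Differences in spread were tested gene by gene with limma on absolute deviations from the group mean, over 9780 genes whose mean passed 5 FPKM in all 4 groups. WT-DES varied more than WT-veh in 701 genes (7.17%) and less in 18 (0.184%) at an adjusted p of at most 0.05. It varied more than αERKO-veh in 583 genes (5.96%) and less in 66 (0.675%), and more than αERKO-DES in 614 (6.28%) and less in 61 (0.624%). Without sample 1 the 3 counts of more variable genes were 141, 124 and 139. With deviations taken from the group median in place of the mean they were 0, 0 and 1, with unadjusted p-values not above 0.05 for 740, 783 and 835 genes in either direction. With only the 2 groups compared in the fit they were 2, 1 and 1. In data simulated with no difference in spread the same test made 14 calls. Where 200 of 9760 genes had a larger spread, 15.4% of its 169 calls of larger spread were false. It also made 25 calls of smaller spread there, though no gene had been given one, so these counts are not firm.

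Among the calls against WT-veh, the largest differences toward more spread in WT-DES were those of *Mir682*, *Snora64*, *Tgm4*, *Ank1*, *Pbsn* and *Igfbp2*. *Ank1*, encoding the membrane scaffold ankyrin 1, was at 52.0, 2.10, 4.55 and 3.98 FPKM in WT-DES and at 30.7, 36.6, 33.8 and 35.2 in WT-veh, with a difference in mean absolute deviation of 1.47 (standard error 0.36, limma adjusted p = 0.00354). *Pbsn* differed by 1.43 (standard error 0.31, limma adjusted p = 0.00114). In the other direction stood *Sbp*, *Mat2a*, *Drosha*, *Zfp62* and the unmatched *AK189601* and *AK155141*. They come from 18 calls of less spread. The simulation made 25 calls in that direction with none planted, so nothing is read from these genes. *Drosha*, encoding the nuclear RNase of microRNA processing, was at 15.5, 15.4, 15.1 and 15.4 in WT-DES and at 12.5, 13.8, 12.7 and 20.5 in WT-veh.

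A single value per sample was also compared, the median over those 9780 genes of the absolute difference from the gene's group median. It was 0.142 in WT-DES sample 1 and 0.0602, 0.0551 and 0.0508 in samples 2 to 4, with a mean of 0.0771 ± 0.0436 (SD, n = 4). The means of WT-veh, αERKO-veh and αERKO-DES were 0.0646 ± 0.0195, 0.0761 ± 0.0249 and 0.0801 ± 0.0275. The smallest p that 4 against 4 samples allow is 0.0286. Two-sided exact permutation gave p = 0.771, 1 and 0.886 for WT-DES against these groups, each with an adjusted p of 1. Samples 2 to 4 lay within the range of the 12 samples of the other groups, and sample 1 lay above all of them.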

How the data were processed

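Total RNA of mouse SV was sequenced as paired ends of 126 nt, and per the labels and methods the authors kept reads of average quality above 20, mapped them to mm10 with TopHat2 2.0.4 and deposited FPKM values from Cufflinks 2.0.2 for 31274 genes in 16 samples. The annotation behind the deposited FPKM and any scaling between samples are not given in the sources used here. FPKM holds no counts, so the depth is unknown and precision rests on the spread between samples.

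Values were analysed as log2(FPKM + 1), which understates changes of low genes. Levels were tested with limma 3.58.1 (R 4.3.3; 1 mean per group, 16 samples, genes above 1 FPKM in a group, Benjamini-Hochberg adjustment) and spread with limma on absolute deviations from the group mean, scaled for n. Replicate numbers were not used as pairs: of 4 same-numbered pairs of WT-veh and WT-DES samples, 0 deviated together with r above 0.1. Lengths and coordinates come from GENCODE M21, matched for 22557 genes by symbol and 979 by synonym. Named genes were the 15 of highest mean, the 20 of largest SD, the 8 of smallest SD among the 200 highest, up to 4 of highest mean and of largest SD in each list, 6 per direction among calls of spread, *Ltf* and *Esr1*; some genes under these rules are not reported here. Other genes, and the minimum of 300 nt, were chosen after their values were seen. The 23 lists and the members were chosen with earlier results of these data known. In simulated data the level test recovered 96% of genes changed by 1 log2 unit, with 2.97% of calls false, and the spread test 55% of genes with a 4-fold SD. The alternatives are given in the closing section. Python 3.11.15 drew the tables and figures.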

Additional observations from a re-analysis of the deposited data

Results flagged for a closer look

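Each WT-DES sample was compared with the other 3 by the ratio of gap to range, and a gene is named here where the ratio passed Dixon's 95% critical value for 4 samples. Chance alone gives this in about 1 in 20 groups, and 8.68% of the 11329 genes of at least 300 nt with a mean FPKM above 5 passed it. Of 61 named genes 20 passed, but these include genes picked for their spread, and 11 of the 20 were at 0 in 3 samples, which fixes the ratio, so that nothing is read from this count. Of the 23 list means 0 passed.

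Sample 1 was far above the others for its median deviation from the group (ratio 0.898) and for *Ccl3* (0.88), *Kcnf1* (0.892), *Npy6r* (0.903) and *Pthlh* (0.853). Sample 4 was far above the others for *Cnfn* (0.894), *Slurp1* (0.925), *Crct1* (0.96) and *Calm4* (0.955). The ratio was 1.0 for features listed at 0 in 3 samples, namely *AB346779*, *TCRB5-2*, *DQ542984* and *Tcra-V2* in sample 1, *Mir3057* in sample 2, *Snord35b*, *DQ707587*, *Snora68* and *mdab1* in sample 3, and *Mir7082* and *Mirlet7c-2* in sample 4. *AK218069* was listed at 0 in sample 4 and at 107 to 130.4 FPKM in the others (0.96).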

How the results depend on the processing

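The level calls against WT-veh (4613 higher, 3815 lower) came to 6953 and 1831 at equal totals without the 20 highest genes, to 2931 and 3416 with a minimum mean of 5 FPKM, and to 3689 and 3950 after quantile normalization, so that under the last pair more genes were lower than higher. Leaving out 1 sample gave 4491 to 4683 and 3671 to 3986. Genes with an SD above 1 within WT-DES (345) numbered 131 above a mean of 20 FPKM and 154 to 428 with 1 WT-DES sample left out, 154 being the count without sample 1, and the median SD (0.149) then ranged from 0.0937, again without sample 1, to 0.154.

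Counts of genes more variable in WT-DES, set against WT-veh, then αERKO-veh, then αERKO-DES (701, 583 and 614), were 1131, 954 and 1075 after quantile normalization, 1128, 917 and 1011 with the minimum applied to WT-DES alone, 46, 47 and 49 on squared deviations, 0, 0 and 1 from the group median, and 2, 1 and 1 with only the groups compared. A minimum of 1 FPKM gave 1066 against WT-veh and 942 against αERKO-DES. Leaving out 1 sample gave 141 to 1323, 124 to 1156 and 139 to 1234, each lowest without WT-DES sample 1. Counts of less variable genes (18, 66 and 61) were 36, 102 and 95 at the 1 FPKM minimum, 2, 5 and 11 on squared deviations, 0, 0 and 0 from the group median, and 1, 0 and 0 with only the groups compared, 8 against WT-veh at equal totals, and 5 to 65, 58 to 270 and 37 to 187 with 1 sample left out. The αERKO-veh and αERKO-DES maxima came without their samples 4 and 2, and the WT-veh minimum and maximum without its samples 4 and 3. The cause of these shifts was not tested.

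The difference in sample deviation between WT-DES and αERKO-DES (−0.00301) turned to 0.0239 after quantile normalization, 0.00414 at equal totals, 0.00331 at the 1 FPKM minimum, 0.000434 from the group mean and 0.0229 as a mean over genes. With 1 sample left out it ran from −0.0478 to 0.0350, that with WT-veh from −0.0324 to 0.0435 and that with αERKO-veh from −0.0439 to 0.0337.

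Replicate numbers in the labels did not pair the samples: r of same-numbered deviations was above 0.1 in 5 of 24 pairs (−0.473 to 0.439), 3 of them among the 4 pairs of αERKO-veh with αERKO-DES and 0 among those with a WT-DES sample, of which the highest was 0.0619. With the replicate number as a block, 4597 genes were called higher and 3812 lower than in WT-veh, and the counts of spread were 1, 1 and 1 more variable and 0, 0 and 0 less variable, with unadjusted p-values not above 0.05 for 1366, 1147 and 1402 genes. FPKM gives no counts, so what depth limits could not be computed.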

Other observations

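Several genes outside the lists, chosen after their values were seen, set single samples apart in other ways. Sample 3 was highest for *Akr1b7*, an aldo-keto reductase gene, at 19.8, 70.8, 192 and 22.4 FPKM in samples 1 to 4, and for *Vip*, which encodes vasoactive intestinal peptide, at 1.29, 3.26, 25.2 and 11.4. It was lowest for a group of epithelial genes, with *Sprr2f* at 309, 337, 90.4 and 394, the protease genes *Tmprss11g* at 8.26, 8.25, 1.11 and 14.4 and *Prss27* at 14.7, 11.0, 2.01 and 15.4, and *Prol1* at 7.59, 7.12, 0.07 and 7.25. *S100g*, encoding the calcium-binding protein calbindin-D9k, was at 4.69, 11.1, 0.38 and 12.2, low in the same sample.

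Sample 4 was highest for the genes of secreted plasma proteins *Hp*, encoding haptoglobin, at 81.5, 52.2, 32.5 and 371 FPKM, and *Itih4* at 0.94, 0.85, 0.81 and 23.6. Sample 2 was highest for the lipoxygenase genes *Alox12e*, at 7.17, 55.03, 16.8 and 14.7, and *Alox15*, at 7.04, 25.1, 6.03 and 9.17, and for *Ccr7*, a receptor gene of lymphocyte homing, at 3.50, 10.4, 4.45 and 2.68. Sample 1 was lowest for *Folr1*, encoding a folate receptor, at 12.4, 40.1, 114 and 85.6, and for *Defb42*, a β-defensin gene, at 22.4, 182, 246 and 99.8.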
